A study of Homo sapiens with 6 samples.

Results

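Protein arginine methyltransferases attach methyl groups, taken from S-adenosylmethionine, to the side chain of arginine. Type I enzymes leave asymmetric dimethylarginine, type II enzymes leave symmetric dimethylarginine, and type III enzymes leave monomethylarginine only. Sam68 carries arginine-glycine rich stretches that are methylated by PRMT1, the enzyme that makes most of the asymmetric dimethylarginine of mammalian cells, and many other splicing factors and RNA-binding proteins are substrates of the family. The members described here are 5 type I enzymes (PRMT1, PRMT2, PRMT3, CARM1 and PRMT6), 2 type II enzymes (PRMT5 and PRMT9), the type III enzyme PRMT7, and WDR77 (also known as MEP50), the WD-repeat protein that binds PRMT5 and presents substrates to it. These 9 genes were taken by their symbols, as the family of the enzyme that methylates Sam68, and each matched 1 locus among the 74852 loci of the deposited table.

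The libraries came from MDA-MB-231, a human cell line representative of triple-negative breast cancer (TNBC), transfected in 2 rounds with 1 of 2 siRNA pools. The si-CTRL group (3 libraries) received non-targeting siRNAs, and the si-SAM68 group (3 libraries) received 4 siRNAs that target SAM68. Cells were harvested 24 h after the second round, according to the sample labels. By their labels the groups differ only in the siRNA pool, each pool was used in 1 cell line, and the labels do not say whether the replicates of a group were separate cultures, so that p-values measure the spread between these libraries. The values are normalized read counts, that is, reads on a locus divided by the size factor of the library, and the libraries held between 52625492 and 82568487 reads. Of the markers of the line, VIM lay between 138300 and 173160 and CDH1, EPCAM, ESR1 and PGR at no more than 15.2 in any library, whereas ERBB2 mRNA was present at 2413 to 3447. ZEB1, a mesenchymal transcription factor, lay between 4503 and 5988 in the si-CTRL libraries and between 2871 and 3547 in the si-SAM68 libraries. AXL went the other way, with 43113 to 52497 in the si-CTRL libraries and 54323 to 60461 in the si-SAM68 libraries. CD44 overlapped between the groups, at 43246 to 68397 and 57327 to 63830. The groups did not overlap at 33.9% of all loci tested. Markers of leukocytes (PTPRC), endothelium (PECAM1) and hepatocytes (ALB) reached at most 16.2. In si-SAM68 replicate 2, 15.1% of the reads lay on the locus of the rRNA precursor, against at most 3.17% in the others. By the median absolute log2 difference over the 18849 loci tested, whose mean normalized read count was 10 or higher, si-CTRL replicate 1 lay 0.235 and 0.232 from replicates 2 and 3, which lay 0.112 from each other. The results for the 9 genes that move with either of these libraries are given with and without it.

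The 4 siRNAs that make up the si-SAM68 pool are printed here because they are the treatment itself, and because a short match to another mRNA could lower that mRNA directly. They are sense strands read 5′ to 3′, and the capitals mark the 7 bases that pair with bases 2 to 8 (the seed) of the guide strand:
siSAM68_1: gcacccauaugGACGUUAu
siSAM68_2: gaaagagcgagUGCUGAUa
siSAM68_3: uaugauggaugAUAUCUGu
siSAM68_4: aaagaucucugUAUUGGGa
Each of the 4 was found whole, over its 19 bases, in KHDRBS1 transcripts of GENCODE v29. No coding transcript of a methyltransferase or of WDR77 shared more than 10 bases in a row with any of them on either strand. This longest run was reached by PRMT1, PRMT2 and PRMT3, and the shortest, of 7 bases, was that of WDR77. Among the longest 3'UTRs of the 9 genes, only that of PRMT6 held a seed site of the pool, the TATTGGG of siSAM68_4 from base 232 of 1451, here in capitals with its surroundings: gcgtgcttatTATTGGGcatttagcct. Of 19145 genes with a 3'UTR, 26.2% held a site for at least 1 siRNA of the pool. For the si-CTRL pool the share was 50.02%, and PRMT5, PRMT6, CARM1 and WDR77 were among the genes with a site. A match of this kind is a description of the letters and not evidence that the site was used.

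KHDRBS1, the gene of Sam68 (locus GSHG0000334, chromosome 1 of hg19, 32479295 to 32526460), was measured first as a check of the labels. Its normalized read counts were 15660.4, 14483 and 14737 in the si-CTRL libraries (replicates 1 to 3) and 583, 602 and 670.2 in the si-SAM68 libraries. All si-SAM68 libraries lay far below all si-CTRL libraries, with a log2 fold change of -4.60 (limma, adjusted p = 2.13e-09, standard error 0.083). In bulk RNA, fewer cells with an mRNA and less of that mRNA per cell cannot be told apart.

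None of the 9 genes changed in si-SAM68 vs. si-CTRL cells by an adjusted p-value under 0.05 (limma, Benjamini-Hochberg adjustment over 18849 loci), a call that 10.7% of all loci tested received. None had an unadjusted p-value under 0.05 in this fit either, against 27% of all loci (PRMT9 did in others, described with that gene), and none passed the pair of thresholds used in the paper (fold change of at least 1.5 and unadjusted p-value of at most 0.05), which 7.67% of all loci did. With edgeR and DESeq2 on the reads recovered from the table, 0 of the 9 had an adjusted p-value under 0.05 as well. All 9 passed the minimum for testing, with at least 629 reads each in every library. The group means in si-SAM68 cells were between 89.5% (WDR77) and 126% (PRMT9) of those in si-CTRL cells. The log2 fold change was above 0 for 3 of the 9 genes and below 0 for the other 6, and its median was -0.04, against 0.01 over all loci. In the limma fit with all 6 libraries, the 95% interval of the fold change lay within 1.5-fold in both directions for 8 of the 9 genes. This was so for 87.8% of loci with as many reads as PRMT9 or more. The exception among the 9 was PRMT9, whose interval reached a 1.66-fold increase. The median half-width of the interval was 0.20 on the log2 scale.

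**Figure D1:**
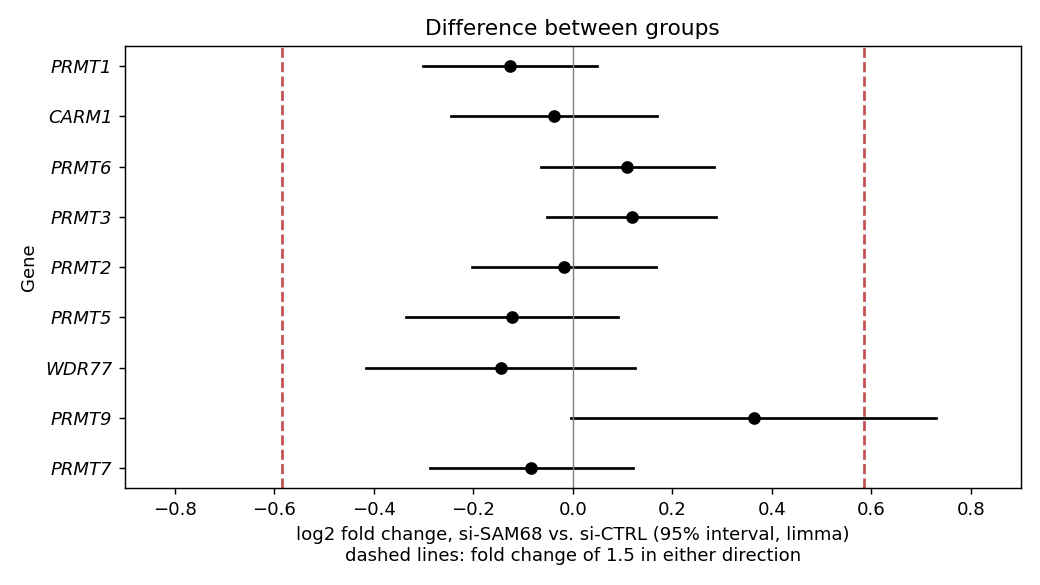
Log2 fold change in si-SAM68 vs. si-CTRL cells (x axis) of each gene (y axis), with points for the estimate and bars for the 95% interval from limma over 3 libraries per group. Every interval includes 0, and only that of PRMT9 passes the dashed line at a fold change of 1.5.

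PRMT1, the methyltransferase of Sam68, lies on chromosome 19 of hg19 (locus GSHG0015104, 50180409 to 50192286). The locus also carries MIR5088, a microRNA hairpin inside an intron of PRMT1, so that reads of both are counted together. The normalized read counts were 17884, 17039.5 and 16144 in the si-CTRL libraries (replicates 1 to 3) and 16683, 15507 and 14637 in the si-SAM68 libraries. The highest si-SAM68 library lay inside the si-CTRL range, so that the groups overlapped. The mean was 17022 ± 870.0 (SD, n = 3) in the si-CTRL libraries and 15609 ± 1027 (SD, n = 3) in the si-SAM68 libraries. The log2 fold change was -0.13 (standard error 0.079, 95% interval -0.30 to 0.05, adjusted p = 0.335 from limma). In this fit the lower end of the 95% interval was a 1.23-fold decrease of PRMT1 mRNA. Over the 6 fits that each omit 1 library, the log2 fold change remained between -0.17 and -0.08, and the adjusted p-value was at least 0.253.

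CARM1 (also PRMT4), which methylates histone H3 and transcriptional coactivators, lies on chromosome 19 (10982253 to 11033744). It had 5043, 4407 and 4099 in the si-CTRL replicates and 4616, 4419 and 4132 in the si-SAM68 replicates. The si-SAM68 range fell wholly within the si-CTRL range, and the log2 fold change was -0.04 (95% interval -0.24 to 0.17, adjusted p = 0.835 from limma). Without si-CTRL replicate 1 it was 0.04 (adjusted p = 0.719 from limma). PRMT6, a nuclear enzyme that methylates histone H3, lies on chromosome 1 (107599267 to 107601907). It has the siSAM68_4 seed site shown above, and also sites for siRNAs siCTRL_2 and siCTRL_3 of the si-CTRL pool. Its values were 3826, 3794 and 4126 in the si-CTRL libraries and 4208, 4007 and 4463 in the si-SAM68 libraries. They overlapped between the groups, and the difference, a log2 fold change of 0.11 (95% interval -0.06 to 0.28, adjusted p = 0.400 from limma), was above 0.

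PRMT3, a cytosolic enzyme that methylates the ribosomal protein RPS2 (chromosome 11, 20409076 to 20530877), had 2819.6, 2814 and 2883 in the si-CTRL libraries and 3052, 2938 and 3265 in the si-SAM68 libraries. Each si-SAM68 library was above each si-CTRL library. The groups were also apart, without overlap in either direction, at 33.9% of all loci, and among the 9 genes at PRMT3 and PRMT9 only, both higher, as at 16.6% of all loci. The mean of PRMT3 was 2839 ± 38.6 (SD, n = 3) in the si-CTRL libraries and 3085 ± 166.0 (SD, n = 3) in the si-SAM68 libraries, a log2 fold change of 0.12 (95% interval -0.05 to 0.29, adjusted p = 0.347 from limma). The upper end of this 95% interval was a 1.22-fold increase. PRMT2 (chromosome 21, 48055079 to 48085029) is a weakly active enzyme that has an SH3 domain and also binds nuclear receptors. PRMT2 had 2806, 3127 and 3180.0 in the si-CTRL libraries and 3174, 2916 and 2904 in the si-SAM68 libraries. Its log2 fold change of -0.02 was the smallest of the family (95% interval -0.20 to 0.17, adjusted p = 0.917 from limma). Without si-SAM68 replicate 2 it was 0.0015 (adjusted p = 0.996 from limma).

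PRMT7, the type III enzyme (chromosome 16, 68344877 to 68392449), had 2318, 2265 and 2229 in the si-CTRL libraries and 2361, 1919.8 and 2172 in the si-SAM68 libraries. The si-SAM68 libraries held both the highest and the lowest value. The lowest was that of replicate 2, the library with the rRNA reads. The log2 fold change was -0.08 (adjusted p = 0.601 from limma) and -0.00 without that library (adjusted p = 0.988).

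**Figure D2:**
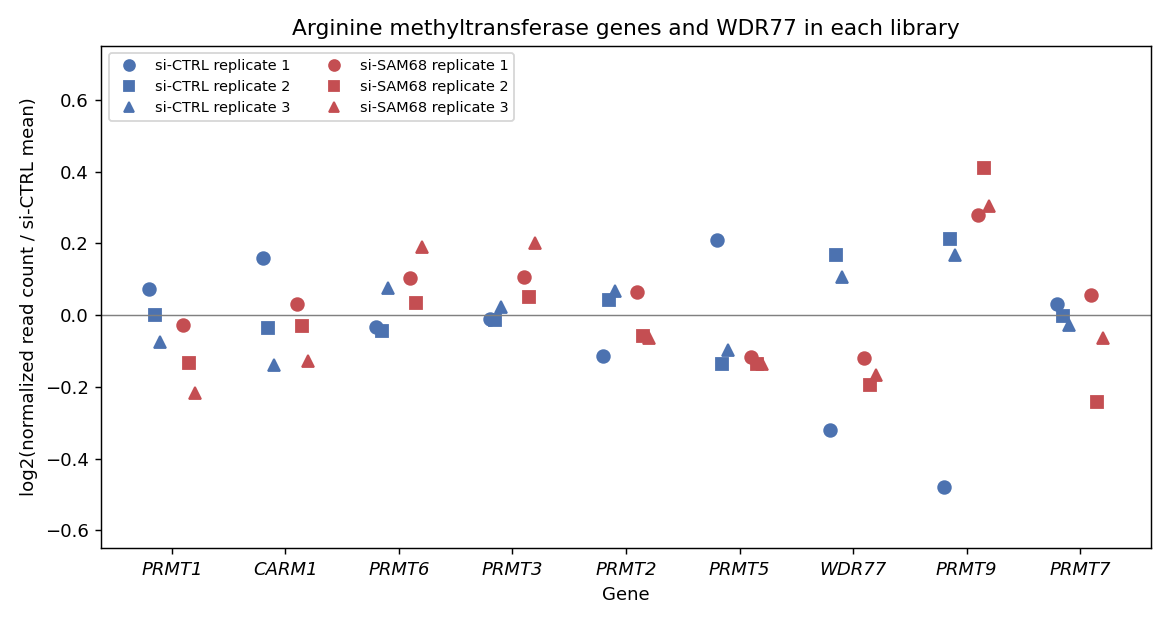
Normalized read count in each library relative to the si-CTRL mean, on the log2 scale (y axis), for each gene (x axis). Blue symbols are si-CTRL and red symbols si-SAM68 libraries, and the shape gives the replicate. The blue circle of si-CTRL replicate 1 stands away from the other si-CTRL symbols for PRMT5, WDR77 and PRMT9.

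PRMT5, the main type II enzyme, which methylates the Sm proteins of the spliceosome and histones, lies on chromosome 14 (locus GSHG0009232, 23389720 to 23398794). Its normalized read counts were 16423, 12918 and 13279.8 in the si-CTRL libraries (replicates 1 to 3) and 13091, 12926 and 12917 in the si-SAM68 libraries. Si-CTRL replicate 1 stood above the rest, which lay close together. The log2 fold change was -0.12 (standard error 0.095, 95% interval -0.33 to 0.09, adjusted p = 0.447 from limma). Without si-CTRL replicate 1 it was -0.01 (95% interval -0.14 to 0.11, adjusted p = 0.907). The whole of PRMT5 lies inside a wider locus of the table that is named for DAD1, a subunit of the oligosaccharyltransferase. That locus fell from 13110 ± 325.6 (SD, n = 3) to 10202 ± 268.2 (SD, n = 3), a log2 fold change of -0.36 (adjusted p = 0.0109 from limma). How reads were divided between the loci is not given in the sources used here.

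WDR77, the partner of PRMT5 (locus GSHG0002351, chromosome 1, 111982513 to 111991930), was the only member whose call changed when 1 library was left out. It had 2601, 3648 and 3501 in the si-CTRL libraries (replicates 1 to 3) and 2992, 2839 and 2895 in the si-SAM68 libraries. The si-SAM68 libraries lay between si-CTRL replicate 1 below and the other si-CTRL libraries above. With all libraries the log2 fold change was -0.14 (standard error 0.121, 95% interval -0.41 to 0.13, adjusted p = 0.480 from limma). Without si-CTRL replicate 1, the mean went from 3575 to 2909, or 81.4%, and the log2 fold change was -0.30 (95% interval -0.44 to -0.15, adjusted p = 0.0117). In that comparison 15.1% of all loci had an adjusted p-value under 0.05, and 8.05% were lower. The distance of si-CTRL replicate 1 from the mean of replicates 2 and 3 was -0.46 on the log2 scale for WDR77, a gap reached by 20.3% of all loci. It had the opposite sign, 0.33, for PRMT5. WDR77 shares 469 bases with the locus of ATP5F1, a subunit of the ATP synthase, whose mean was 14858 in the si-CTRL libraries and 14133 in the si-SAM68 libraries. The part of shared reads in the values of WDR77 was not tested.

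PRMT5 and WDR77 form a common complex, and the ratio of their mRNAs was therefore compared. WDR77 had 0.158, 0.282 and 0.264 normalized reads per normalized read of PRMT5 in the si-CTRL libraries (replicates 1 to 3) and 0.229, 0.220 and 0.224 in the si-SAM68 libraries. The ratio was nearly the same in the si-SAM68 libraries and spread on either side of them in the si-CTRL libraries (SD of the log2 ratio 0.03 against 0.46). The mean log2 ratio differed by -0.02 between the groups (two-sided exact permutation test, p = 1, where 3 libraries against 3 allow no p below 0.1). Without si-CTRL replicate 1 the difference was -0.28, and the groups no longer overlapped (exact permutation test, p = 0.2, below which 2 libraries against 3 cannot go).

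PRMT9, the other type II enzyme, which methylates the splicing factor SF3B2 (locus GSHG0023576, chromosome 4, 148558937 to 148605381), had the largest difference of the family. Its normalized read counts were 786, 1272 and 1233 in the si-CTRL libraries (replicates 1 to 3) and 1331, 1458 and 1354 in the si-SAM68 libraries. All si-SAM68 libraries were above all si-CTRL libraries, narrowly so above replicates 2 and 3 and widely above replicate 1. The mean was 1097 ± 269.9 (SD, n = 3) in the si-CTRL libraries and 1381 ± 67.8 (SD, n = 3) in the si-SAM68 libraries. The log2 fold change of 0.36 did not pass the test (standard error 0.165, 95% interval -0.00 to 0.73, unadjusted p = 0.0520, adjusted p = 0.189, from limma). A replicate block, which pairs same-numbered libraries although the labels do not give this pairing, had an unadjusted p of 0.0274 (limma, adjusted p = 0.129). With DESeq2 the unadjusted p was 0.0363 and the adjusted p 0.142. With edgeR the unadjusted p was 0.0616, and 0.0262 with the replicate block. Other pseudocounts, filters and scalings gave unadjusted p-values on both sides of 0.05 (limma, 0.0438 to 0.0531). Without si-CTRL replicates 2 and 3 the log2 fold change was 0.49 and 0.46 (limma, unadjusted p = 0.0157 and 0.0261). With any si-SAM68 library left out, the unadjusted p was 0.0896 to 0.123 (limma). No setting gave an adjusted p-value under 0.05. Without si-CTRL replicate 1 the log2 fold change was 0.14 (95% interval -0.03 to 0.31, adjusted p = 0.267), so that most of the difference was with this library. PRMT9 overlaps TMEM184C, a transmembrane protein gene on the other strand, over 34258 bases. TMEM184C had 1519.8, 1711 and 1679 in the si-CTRL libraries and 1999, 2190.2 and 2287 in the si-SAM68 libraries. It rose by a log2 fold change of 0.40 (adjusted p = 0.0215 from limma). The library kit keeps strand, but whether strand was used in counting is not given in the sources used here, and the part of reads shared with TMEM184C in the values of PRMT9 was not tested.

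**Figure D3:**
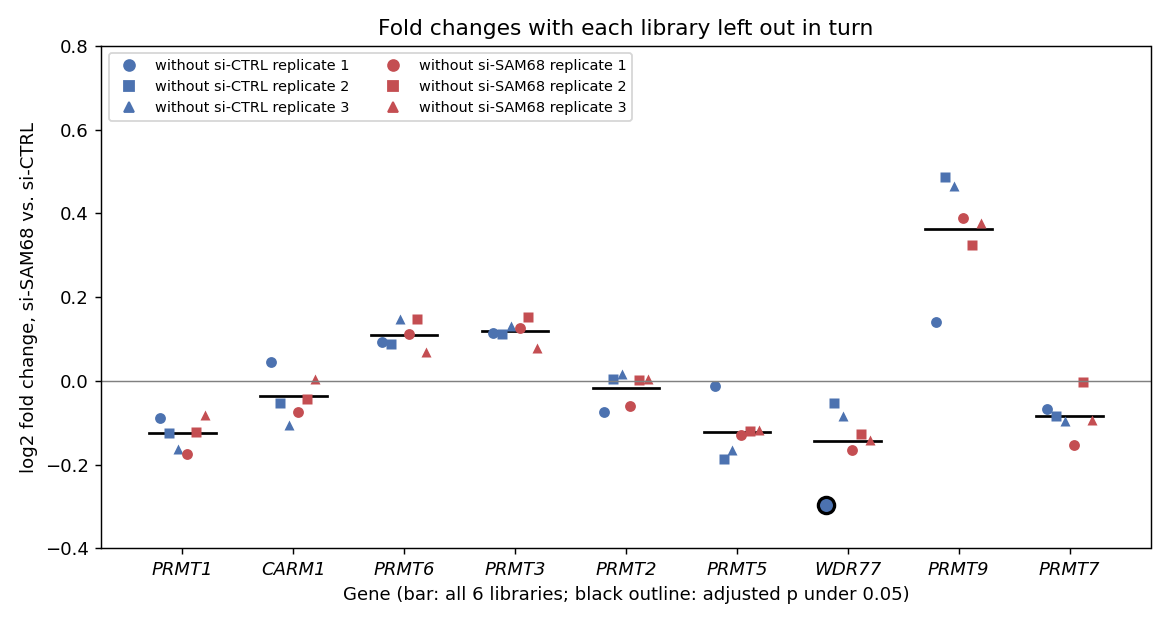
Log2 fold change in si-SAM68 vs. si-CTRL cells (y axis) of each gene (x axis), with a bar for all 6 libraries and a symbol for each library left out. The single symbol with a black outline, WDR77 without si-CTRL replicate 1 at -0.30, is the only one with an adjusted p-value under 0.05.

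The value of si-CTRL replicate 1 was the highest or the lowest of its group in 7 of the 9 genes, against 81.1% of all loci. The median absolute log2 difference over the 9 genes was 0.157 and 0.180 between this library and si-CTRL replicates 2 and 3, and 0.0445 between the latter. Between si-SAM68 libraries it was 0.076 to 0.097. These medians hide PRMT9 and WDR77, which lay 0.67 and 0.46 lower in si-CTRL replicate 1 than in the mean of the other si-CTRL libraries, against a median gap of 0.22 over all loci. PRMT5 and CARM1 lay 0.33 and 0.25 higher in it, and the remaining genes had gaps below that median.

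Levels of the genes were compared per kilobase of exon, with the exons of all coding transcripts of a gene in the basic set of GENCODE v29 merged. This length overstates what is transcribed in genes with little-used exons. PRMT1 was the most abundant at 8922 ± 456.0 (SD, n = 3) normalized reads per kb in si-CTRL cells, and PRMT5 followed at 5431 ± 736.8. Then came PRMT6 at 1497 ± 70.0, CARM1 at 1356 ± 144.6, WDR77 at 1262 ± 220.2 and PRMT3 at 1070.1 ± 14.6. The ranges of these neighbours overlapped over the 6 libraries, with PRMT6 above CARM1 in 5 libraries, CARM1 above WDR77 in 4, and WDR77 above PRMT3 in 3. PRMT2 at 644 ± 43.0, PRMT7 at 530.2 ± 10.5 and PRMT9 at 311 ± 76.5 were the lowest. All other neighbours in this order kept their places in each of the 6 libraries without overlap of their ranges. PRMT8, a close paralog of PRMT1 that is expressed in brain and is not among the 9 genes, had no reads in any library, which at 3 reads allows a normalized read count of up to 3.75 in the shallowest library.

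**Figure D4:**
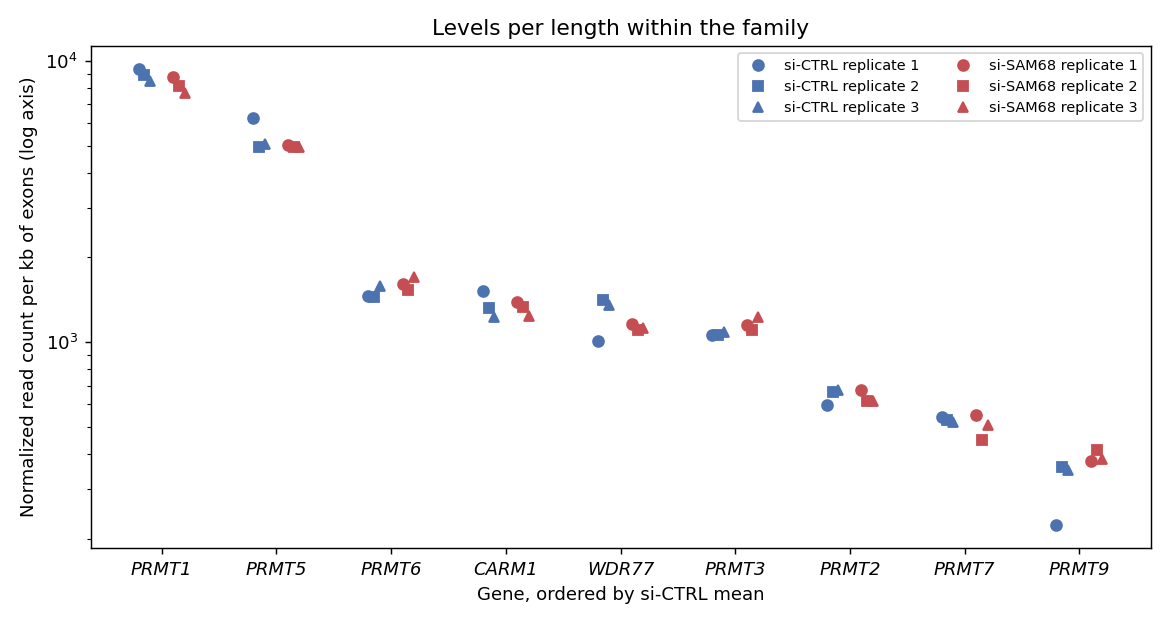
Normalized read count per kb of merged exons (y axis, log scale) for each gene (x axis), ordered by the si-CTRL mean, in every library. PRMT1 and PRMT5 lie at 4937.5 per kb or more in all libraries, and the other genes at 1706 per kb or less.

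PRMT1 and PRMT5 together made up 71.3% to 74.4% of the per-kb sum of the 8 methyltransferases in the si-CTRL libraries (mean 72.6%, SD 1.58) and 68.9% to 70.6% in the si-SAM68 libraries (mean 70.01%, SD 0.939). These ranges did not overlap, as was so at 33.9% of all single loci, and this difference was not tested. The share of the type I enzymes was 68.3% ± 1.62 (SD, n = 3) in the si-CTRL libraries and 68.8% ± 0.723 (SD, n = 3) in the si-SAM68 libraries, so that the make-up of the family by type differed by less than the spread between libraries. PRMT1 alone was 45.2% ± 1.05 in the si-CTRL libraries and 43.6% ± 1.49 in the si-SAM68 libraries. PRMT1 mRNA was 1.58 to 1.70 times that of its substrate KHDRBS1 per kb in si-CTRL libraries and 31.6 to 41.3 times in si-SAM68 libraries, as KHDRBS1 was lower in the latter.

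The 3 loci whose log2 values over the 6 libraries were most like those of PRMT1 were THAP7 (Pearson r = 0.998), SIPA1 (r = 0.997) and ST6GALNAC6 (r = 0.993). This is a description over 6 libraries that all genes share, and 92 of the 12113 loci compared (0.76%) reached an r of 0.95 or more. Like PRMT1, all of them were highest in si-CTRL replicate 1 and lowest in si-SAM68 replicate 3, and none had an adjusted p-value under 0.05 (limma, 0.157 to 0.275).

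The surroundings of the family were described with lists of 60 genes: partners and adaptors of the enzymes, enzymes of the methyl donor, readers of methylarginine, enzymes that clear or alter it, other arginine methyltransferases, and known substrates. These are 59 loci, as SMN1 and SMN2 share one, and 58 were tested. Of the 58, 11 had an adjusted p-value under 0.05 (18.97%, against 10.7% of all loci), 5 of them higher and 6 lower. The median log2 fold change of the 58 was -0.00, against 0.01 over all loci. Higher calls were 4.47% and lower calls 6.23% of all loci. With a minimum mean of 50, which leaves out loci with few reads, the same 11 were called (19% of the 58). The share of all loci was then 14.4%, nearer to that of the list. Shares by role below are set against the main fit, with its minimum mean of 10. The count moved with the libraries used. It was 15 without si-CTRL replicate 1 (25.9% of the list, against 15.1% of all loci). Without si-CTRL replicates 2 and 3 it was 5 and 4 (8.62% and 6.90%, against 8.45% and 5.85% of all loci), and without si-SAM68 replicate 1 it was 3 (5.17% against 4.90%). It was 1 without si-SAM68 replicate 2, the library with the rRNA reads (1.72% against 4.29%), and 0 without si-SAM68 replicate 3 (against 3.32%). Leaving out any library but si-CTRL replicate 1 thus brought the share of the list near or below that of all loci. Without si-SAM68 replicate 2 the 10 loci that were no longer called had adjusted p-values between 0.0610 (CIRBP) and 0.208 (TAF15) from limma, and each kept the sign of its fold change. Among them MAT2B had a log2 fold change of 0.40 (adjusted p = 0.0731), TDRKH -0.60 (adjusted p = 0.0800), the SMN1 and SMN2 locus -0.31 (adjusted p = 0.101) and MTAP 0.37 (adjusted p = 0.124).

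BTG2, an antiproliferative protein that binds PRMT1 and alters its activity, was the 1 called gene of the 3 partners of PRMT1. It had 1119.9, 1019.9 and 934 in the si-CTRL libraries and 1662, 1395 and 1438 in the si-SAM68 libraries. The groups did not overlap, and BTG2 rose by a log2 fold change of 0.55 (limma, adjusted p = 0.0115, standard error 0.104). It was also the only one of the 11 called without si-SAM68 replicate 2 (adjusted p = 0.0312), but its call was lost without si-SAM68 replicate 1 (adjusted p = 0.0513) and without replicate 3 (adjusted p = 0.0516). BTG1, its paralog, and CHTOP, a substrate and partner of PRMT1, did not pass. The share called was thus 33.3% of the 3 partners, against 10.7% of all loci.

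Of the 3 adaptors that, besides WDR77, bring substrates to PRMT5, CLNS1A (pICln), which delivers Sm proteins, rose from 4720.4 ± 137.2 (SD, n = 3) to 5609 ± 130.7 (SD, n = 3), a log2 fold change of 0.25 at an adjusted p of 0.04996 from limma. This call was lost with the replicate block (limma, adjusted p = 0.0689), a pseudocount of 0.1 (limma, 0.0509) and no filter (limma, 0.0788). It was also lost with a robust trend (limma, adjusted p = 0.0518) and with edgeR (0.0552). Leaving out any library but si-CTRL replicate 1 gave adjusted p-values of 0.0971 to 0.168 (limma). The call held with a pseudocount of 5, a minimum mean of 50, other scalings, DESeq2, and without si-CTRL replicate 1. RIOK1 and COPRS did not pass, so that 1 of the 3 was called (33.3%, against 10.7% of all loci).

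Of the 8 genes of methyl donor supply and clearance, 3 passed (37.5%, against 10.7% of all loci). MAT2B, the regulatory subunit of the synthetase that makes S-adenosylmethionine, rose with a log2 fold change of 0.38 (adjusted p = 0.0235 from limma), and the catalytic subunit MAT2A had 0.19 (adjusted p = 0.124). The locus of MTAP, the phosphorylase that removes methylthioadenosine, an inhibitor of PRMT5, rose from 9789 ± 550.6 (SD, n = 3) to 12782 ± 1546 (SD, n = 3), a log2 fold change of 0.38 (adjusted p = 0.0356 from limma). This locus joins MTAP to CDKN2B-AS1, and its reads cannot be assigned to either. ADK, the kinase that removes adenosine formed from S-adenosylhomocysteine, fell by 0.35 on the log2 scale (adjusted p = 0.0378 from limma). AHCY, the hydrolase of S-adenosylhomocysteine, had a log2 fold change of -0.01 (adjusted p = 0.949).

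Of the 5 loci of methylarginine readers, 2 fell (40%, against 6.23% of all loci). TDRKH, a Tudor and KH domain protein, went from 407 ± 43.5 (SD, n = 3) to 268 ± 39.1 (SD, n = 3), a log2 fold change of -0.61 (adjusted p = 0.0245 from limma), and was the only listed gene past the thresholds of the paper. The joint locus of SMN1 and SMN2, nearly identical copies whose Tudor domain binds methylated Sm proteins, had a log2 fold change of -0.32 (adjusted p = 0.0212 from limma). SND1 had -0.22 (adjusted p = 0.0689), SMNDC1 -0.27 (adjusted p = 0.109) and TDRD3 0.14, and these did not pass.

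Of the 7 enzymes that clear methylarginine or alter arginine, PADI3, a peptidylarginine deiminase, rose with a log2 fold change of 0.50 (adjusted p = 0.0406 from limma, 0.0684 with the replicate block). The dimethylargininases DDAH1 and DDAH2 did not pass. PADI3 was the 1 called of the 7 (14.3%, against 10.7% of all loci). Among 30 known substrates of the family besides Sam68, 3 fell and none rose. The share called, 10%, was near the 10.7% of all loci, and the median log2 fold change was -0.01. CIRBP, a cold-inducible RNA-binding protein with an RGG stretch, went from 5706 ± 217.1 (SD, n = 3) to 4134 ± 433.0 (SD, n = 3), a log2 fold change of -0.47 (adjusted p = 0.0113 from limma). TAF15, an RNA-binding protein that associates with the transcription machinery, had a log2 fold change of -0.25 (adjusted p = 0.0461 from limma). PABPN1, the nuclear poly(A)-binding protein, had -0.29 (adjusted p = 0.0456 from limma) at a locus that also holds BCL2L2, so that the reads of both were counted together. With the replicate block the calls of TAF15 and PABPN1 were lost (adjusted p = 0.0666 and 0.0725). The Sm protein genes SNRPB, SNRPD1 and SNRPD3 did not pass, and neither did FBL, NCL, HNRNPA1 or HNRNPA2B1.

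**Figure D5:**
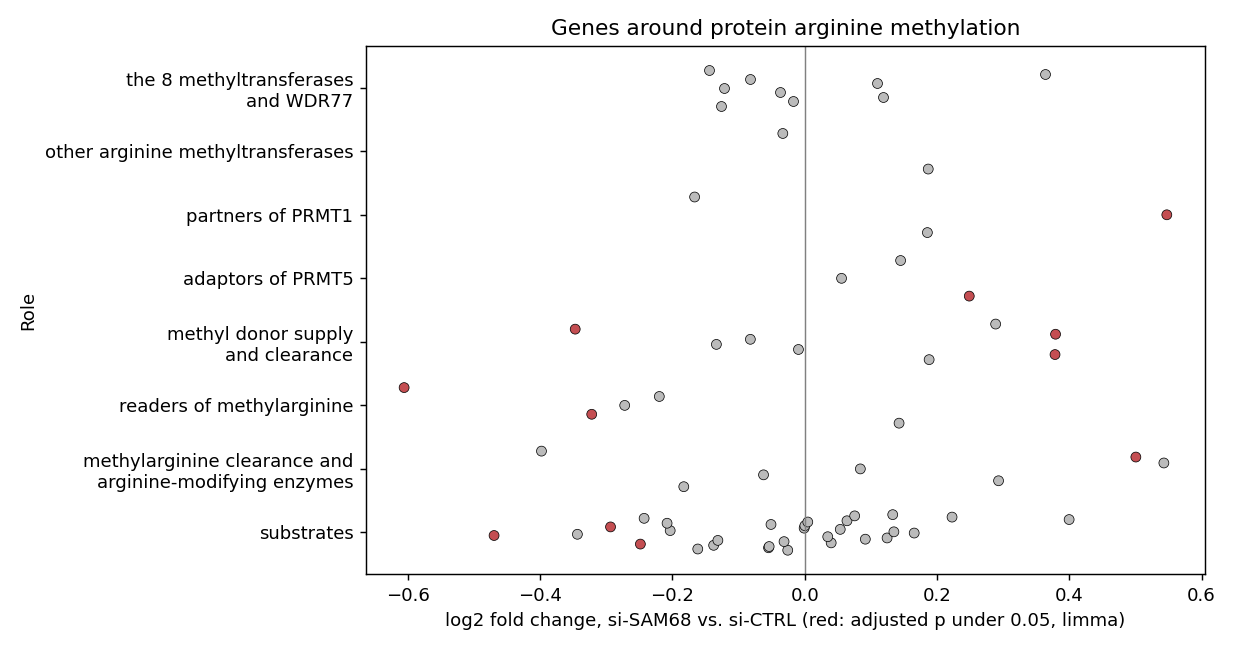
Log2 fold change in si-SAM68 vs. si-CTRL cells (x axis) of the 9 genes and of the listed genes by role (y axis), with 1 point per tested locus. Red points have an adjusted p-value under 0.05 from limma, 11 among the 58 listed loci and 0 among the 9.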

How the data were processed

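Polyadenylated RNA of 6 libraries was sequenced. Per locus and library the authors deposited a signal, the reads counted on FAST DB loci (hg19) divided by the DESeq2 size factor of the library. STAR 2.4.0 is named in the submitters' processing notes, and the counting program is not given in the sources used here. The labels and the paper give different media, extraction kits and harvest times. All values were whole multiples of 1 step per library (tolerance 0.001), which gave the reads. limma 3.58.1 (R 4.3.3; eBayes with trend) was run on log2(normalized read count + 1) wherever the mean was 10 or higher, with no term for replicate. Fold changes are on that scale. edgeR 4.0.16 and DESeq2 1.42.0 were run on the reads as alternatives, beside other pseudocounts, filters, scalings, a replicate block and each library left out. The programs were tested on simulated data. Deviations from the group means correlated at 0.105, 0.231 and 0.125 between same-numbered libraries, and at -0.125 to 0.00687 between the others. The labels do not say that same-numbered libraries were paired, and these weak correlations do not settle it. The replicate block was therefore kept as an alternative. Precision is set by the 3 libraries per group. The siRNA sequences are those of the study. Genes named are the 9 members, KHDRBS1, MTAP, PRMT8, listed genes with an adjusted p under 0.05 (at most 12), and the 3 loci most like PRMT1. Other genes were named after their values were seen. Exon lengths and 3'UTRs are from GENCODE v29 (GRCh38), used for length and sequence only. Members and lists were chosen with earlier results of these data known. The values of 1 listed gene are not reported here.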

Additional observations from a re-analysis of the deposited data

How the results depend on the processing

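Over 17 alternatives, 146 of the 153 alternative values of the 9 genes kept their sign and their side of an adjusted p of 0.05. The replicate block changed no call among them (adjusted p between 0.129 and 0.920) and gave 1697 loci with an adjusted p under 0.05, against 2017. The exceptions all came from leaving out 1 library: WDR77 passed without si-CTRL replicate 1, and the sign turned for PRMT2 (-0.0741 to 0.0162 over the libraries left out) and CARM1 (-0.105 to 0.0449), whose differences were close to 0. With each library left out, the number of the 9 genes called was thus 0 or 1, that of all loci 625 to 2839, and that past the thresholds of the paper 1301 to 1831. The difference in log2 ratio of WDR77 to PRMT5 was -0.28 to 0.13 and turned without si-CTRL replicate 2 or 3. With a minimum mean of 50, 989 loci passed the thresholds of the paper, and with no filter on low values 2240 did. With no filter, 5 of the listed loci had an adjusted p under 0.05 (8.62%, against 4.5% of all loci). Over the libraries left out, the number of listed loci called was 0 to 15. With the replicate block it was 8 (13.8%, against 9% of all loci), of which 7 were among the 11. The log2 fold change of KHDRBS1 was -4.66 to -4.56. The edgeR fit with the replicate block and the counts of listed loci under these settings were added after seeing the data. Strand, and overlapping or joined loci, limit PRMT1, PRMT5, PRMT9, WDR77, CARM1, PRMT7, MTAP, SMN1, SMN2 and PABPN1.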
